A study of Mus musculus with 9 samples.

Results

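Yap1, Wwtr1, the genes of the Tead family and 4 of their classic target genes were followed through 9 RNA sequencing libraries of cultured mouse cells. The members were the rows of the count table whose gene symbol was Yap1, Wwtr1, Tead1, Tead2, Tead3, Tead4, Ctgf, Cyr61, Ankrd1 or Amotl2. These were 11 of 47729 rows, because Tead2 had 2 rows, and 10 rows held enough counts to be tested. The second Tead2 row (ENSMUSG00000109470) had 0 counts in all 9 libraries.

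The NF1 group held tumour cells derived from neural stem cells with the genotype given as shp53, Nf1-/- and CDK4 (cultures 1, 2 and 3). The LTR group held tumour cells derived from neural stem cells with the genotype given as lgT/Ras (cultures 1, 2 and 3). The NSC group held primary neural stem cells of wild-type genotype (cultures 1, 3 and 5), taken from the subventricular zone, the stem cell niche that lines the lateral ventricles. All groups were grown in culture for up to 10 passages. The series' design text calls the 3 cultures of a cell type independent but does not say whether the tumour lines were transformed separately or how many animals they came from, so the spread between them may in part be technical. Nf1 encodes neurofibromin, which switches Ras off, the tumour suppressor p53 is encoded by Trp53, and CDK4 is a kinase that drives entry into S phase.

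YAP, encoded by Yap1, and TAZ, encoded by Wwtr1, are transcriptional coactivators that cannot bind DNA themselves. In the nucleus they bind TEAD proteins, which recognise a short DNA element, and switch on genes for matrix-associated proteins, cytoskeletal regulators and their own inhibitors. The Hippo kinases, MST and LATS, phosphorylate YAP and TAZ and hold them in the cytoplasm, so that much of the control of the pathway acts on protein and not on mRNA level. In the developing brain the pathway is known for its part in the growth of neural progenitors.

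To show what the target promoters look like, the 250 bases before the RefSeq transcription start are printed for 3 of the target genes and for the coactivators, 5′ to 3′ on the coding strand of GRCm38.p6. Capitals mark the core of the TEAD element, GGAATG, or its complement CATTCC. The windows are chr3:145649986-145650235 on the minus strand for Cyr61, chr19:36119845-36120094 on the minus strand for Ankrd1, chr9:102717554-102717803 on the plus strand for Amotl2, chr9:8004597-8004846 on the minus strand for Yap1 and chr3:57575911-57576160 on the minus strand for Wwtr1. For Ankrd1 and Amotl2 the RefSeq start lies inside the gene as GENCODE M21 draws it, so the bases shown may be part of a longer transcript.
Cyr61: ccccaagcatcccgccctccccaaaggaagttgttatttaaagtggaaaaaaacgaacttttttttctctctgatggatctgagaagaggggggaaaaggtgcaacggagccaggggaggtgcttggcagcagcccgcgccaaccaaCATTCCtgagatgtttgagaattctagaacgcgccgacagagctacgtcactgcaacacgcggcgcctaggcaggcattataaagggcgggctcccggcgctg
Ankrd1: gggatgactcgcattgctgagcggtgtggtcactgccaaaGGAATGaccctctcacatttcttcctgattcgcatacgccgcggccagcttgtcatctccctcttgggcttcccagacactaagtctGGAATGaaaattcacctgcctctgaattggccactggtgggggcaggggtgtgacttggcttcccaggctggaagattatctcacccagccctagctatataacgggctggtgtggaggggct
Amotl2: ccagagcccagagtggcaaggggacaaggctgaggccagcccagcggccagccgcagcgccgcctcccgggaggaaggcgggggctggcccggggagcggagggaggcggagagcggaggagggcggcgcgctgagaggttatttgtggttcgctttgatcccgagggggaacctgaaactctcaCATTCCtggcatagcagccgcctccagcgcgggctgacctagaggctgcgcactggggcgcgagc
Yap1: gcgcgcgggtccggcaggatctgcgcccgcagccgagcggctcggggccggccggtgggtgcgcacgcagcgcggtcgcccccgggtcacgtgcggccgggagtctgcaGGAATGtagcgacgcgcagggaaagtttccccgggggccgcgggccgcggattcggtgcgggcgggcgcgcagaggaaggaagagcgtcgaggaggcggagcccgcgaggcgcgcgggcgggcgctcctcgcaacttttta
Wwtr1: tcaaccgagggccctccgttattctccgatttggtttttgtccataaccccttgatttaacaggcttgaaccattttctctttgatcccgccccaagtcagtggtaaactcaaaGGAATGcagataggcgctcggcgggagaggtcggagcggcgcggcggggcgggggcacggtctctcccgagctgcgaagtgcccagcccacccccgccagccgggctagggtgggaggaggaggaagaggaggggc

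RefSeq windows of 300 bases, 250 before and 50 after the start, were at hand for 7 of the 10 genes, which leaves Tead1, Tead4 and Ctgf without one. These genes had 10 windows, and 8 of them held the TEAD core on either strand, against 14.7% of all 32851 windows. Of the 7 genes, Tead2 was the one with no core. It began at base -103 from the start in Cyr61, at bases -210 and -123 in Ankrd1, at base -65 in Amotl2, at base -141 in Yap1 and at base -136 in the Wwtr1 window shown. Wwtr1 had 2 overlapping windows, both with the same core, and Tead3 had it in 2 of its 3 windows, which also overlap. The windows are therefore not independent, and the genes were chosen as known genes of the pathway. The count beside the share of all windows is no test of enrichment. The AP-1 element TGANTCA, whose complement is the same pattern, was in none of the member windows and in 7.81% of all windows. A match is a description of these letters and no measure of binding.

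Total counts per library ran from 28600479 to 57231024, and 3 counts, the limit used for a count of 0, corresponded to 0.0541 to 0.114 CPM. CPM are counts scaled to a common library size and corrected for composition. NF1 2 stood apart from the other tumour libraries: the first principal component of log2 CPM, which held 70.6% of the variance, placed it at -21.2, the other NF1 libraries at 85.1 and 109, the LTR libraries at 84.6 to 92.2 and the NSC libraries at -150 to -136. Nf1 itself was at 59.0, 97.2 and 40.1 CPM in NF1 1, 2 and 3, at 80.0, 40.3 and 58.0 CPM in LTR 1, 2 and 3, and at 110, 82.5 and 114 CPM in NSC 1, 3 and 5. Cdk4 was at 795, 393 and 1124 CPM in NF1 1, 2 and 3, at 1015, 935 and 1020 CPM in LTR 1, 2 and 3, and at 334, 456 and 325 CPM in NSC 1, 3 and 5. Trp53 was at 217, 151 and 221 CPM in NF1 1, 2 and 3, at 223, 281 and 255 CPM in LTR 1, 2 and 3, and at 107, 114 and 101 CPM in NSC 1, 3 and 5. Its mRNA rose against NSC in NF1 (log2 fold change 0.87 ± 0.20, adjusted p = 0.0141) and in LTR (1.23 ± 0.20, adjusted p = 0.00258). Each NF1 library was below each LTR library (NF1 against LTR, -0.365 ± 0.195, adjusted p = 0.567). The NF1 level was thus above NSC despite the shp53 label, and the effect of shp53 on Trp53 was not tested. A count over the whole gene need not show a deletion, but Nf1 and Cdk4 lay within the NSC range in the library labelled NF1 2. Group names are therefore those of the labels throughout. NSC 3 differed from NSC 1 and NSC 5 in a list of markers of mural cells and fibroblasts. The summed level of the list was 773, 47.3 and 1045 CPM in NSC 1, 3 and 5, most of it from Col1a1 and Col1a2. For the 10 genes, values without NF1 2 or NSC 3 are given where they bear on a comparison. Per the file headers, all NSC libraries ran on sequencing lane 1 and all tumour libraries on lane 7, so that lane and tumour genotype cannot be told apart in the comparisons with NSC.

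The 3 groups were compared by edgeR's quasi-likelihood F test in 1 fit of all 9 libraries, and a gene passed at a Benjamini-Hochberg adjusted p under 0.05 over 15696 genes. In NF1 against NSC, Tead4 and Ankrd1 rose and Ctgf and Cyr61 fell, which is 2 of the 10 genes in each direction, while 10.1% of all genes tested rose and 13.1% fell. In LTR against NSC, Tead2, Tead4 and Ankrd1 rose and Tead1, Ctgf and Cyr61 fell, which is 3 of 10 in each direction, against 14.9% of all genes that rose and 20.9% that fell. Without both NSC 3 and NF1 2, 3 members rose and 4 fell in NF1, and 3 rose and 5 fell in LTR, but the calls over all genes grew as well, to 3387 risen and 4098 fallen in NF1 and 3693 risen and 4325 fallen in LTR, against 1578, 2053, 2346 and 3288 with all libraries. The median log2 fold change of the 10 genes was -0.10 in NF1 and -0.50 in LTR, beside 0.00 and -0.06 over all genes. The 2 comparisons share the NSC libraries. Groups without overlap were common. Over all genes tested, every LTR library was above every NSC library for 26.9% of genes and below for 32%. The shares were 18.7% and 23.7% in NF1 against NSC, and 7.21% and 5.24% in NF1 against LTR. Statements below that libraries of 2 groups did not overlap are to be read beside these shares. In bulk RNA, fewer cells of a type and less RNA per cell cannot be told apart.

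**Figure D1:**
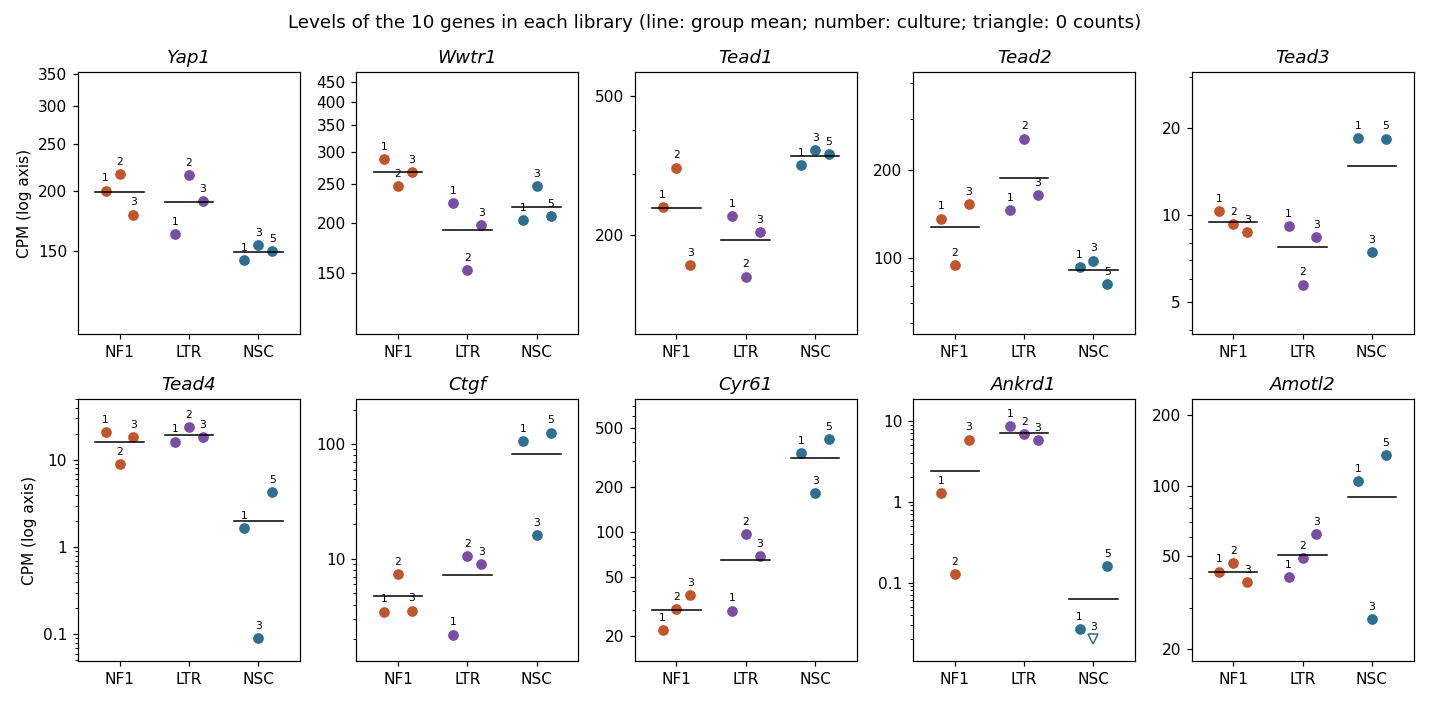
CPM (log axis) of the 10 genes in each library of NF1, LTR and NSC, with the culture number above each point, a line at each group mean and an open triangle for 0 counts. Ctgf and Cyr61 lie lower and Tead4 lies higher in every tumour library than in every NSC library. Of all genes tested, 18.7% lie wholly above and 23.7% wholly below NSC in NF1, and 26.9% and 32% in LTR. NSC 3 is the lowest NSC library for Ctgf, Cyr61, Amotl2, Tead3 and Tead4.

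The mRNAs of both coactivators were abundant in every library and neither passed the test in any comparison. Yap1 (ENSMUSG00000053110, chr9:7931999-8004596, minus strand) was at 200, 216.5 and 178 CPM in NF1 1, 2 and 3, at 162, 216 and 190 CPM in LTR 1, 2 and 3, and at 143.5, 154 and 150 CPM in NSC 1, 3 and 5. Every tumour library was above every NSC library, by a small margin. The log2 fold change against NSC was 0.41 ± 0.17 (SE) in NF1 (adjusted p = 0.108) and 0.35 ± 0.17 in LTR (adjusted p = 0.138). Without LTR 2 the NF1 value passed (log2 fold change 0.50, adjusted p = 0.0472), and it did not without NF1 2 (0.35, adjusted p = 0.138) or NSC 3 (0.52, adjusted p = 0.094).

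Wwtr1 (ENSMUSG00000027803, chr3:57455649-57575910, minus strand) was at 288, 247 and 268 CPM in NF1 1, 2 and 3, at 224, 152.5 and 197 CPM in LTR 1, 2 and 3, and at 203, 247 and 208 CPM in NSC 1, 3 and 5. NF1 and NSC overlapped, as did LTR and NSC, while each NF1 library was above each LTR library, as for 7.21% of all genes tested. The log2 fold change against NSC was 0.29 ± 0.19 in NF1 (adjusted p = 0.299) and -0.20 ± 0.19 in LTR (adjusted p = 0.445). The LTR value changed sign without NSC 3 (0.02) and without LTR 2 (0.06). The NF1 value was 0.35 without NF1 2 (adjusted p = 0.199) and 0.48 without NSC 3 (adjusted p = 0.156).

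To compare levels between genes, CPM were divided by the length of the merged exons in kilobases. Wwtr1 then stood above Yap1 in every library: it made up 72.3 ± 3.01% of the 2 coactivator mRNAs in NF1, 65.8 ± 7.56% in LTR and 73.9 ± 1.51% in NSC (mean ± SD, n = 3 each). The lowest share was 57.8% in LTR 2, where Yap1 was the higher of the 2 in plain CPM (215.6 against 152.5). Merged exons include those of all annotated transcripts, whether or not the cells use them. Orders between genes therefore depend on this length (9257 bases for Yap1, 4779 for Wwtr1). Summed over both genes, the level was 81.9, 75.1 and 75.3 CPM per kb in NF1 1, 2 and 3, 64.4, 55.2 and 61.9 CPM per kb in LTR 1, 2 and 3, and 58.0, 68.4 and 59.6 CPM per kb in NSC 1, 3 and 5. Each NF1 library was above each LTR and NSC library in this sum.

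The TEAD genes encode the DNA-binding partners, and by this length-scaled level their order differed between the groups. In NF1, Tead2 was at 26.8 ± 6.27 and Tead1 at 17.6 ± 5.45 CPM per kb, with overlapping ranges, Tead4 at 4.48 ± 1.77 and Tead3 at 1.41 CPM per kb (mean ± SD, n = 3). In LTR, Tead2 came first with 39.5 ± 12.4 CPM per kb, followed by Tead1 with 14.3 ± 2.8, Tead4 with 5.4 ± 1.07 and Tead3 with 1.16 CPM per kb, and no neighbours in this order overlapped. In NSC, Tead1 was the most abundant per length, with 24.8 ± 1.24 CPM per kb, followed by Tead2 with 19 ± 1.8, Tead3 with 2.2 and Tead4 with 0.56 ± 0.59 CPM per kb. Tead1 and Tead2 did not overlap in NSC, while Tead3 and Tead4 did. The order of Tead1 and Tead2 rests on the exon lengths (13570 and 4788 bases). In plain CPM, Tead1 was above Tead2 in every library except LTR 2.

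**Figure D2:**
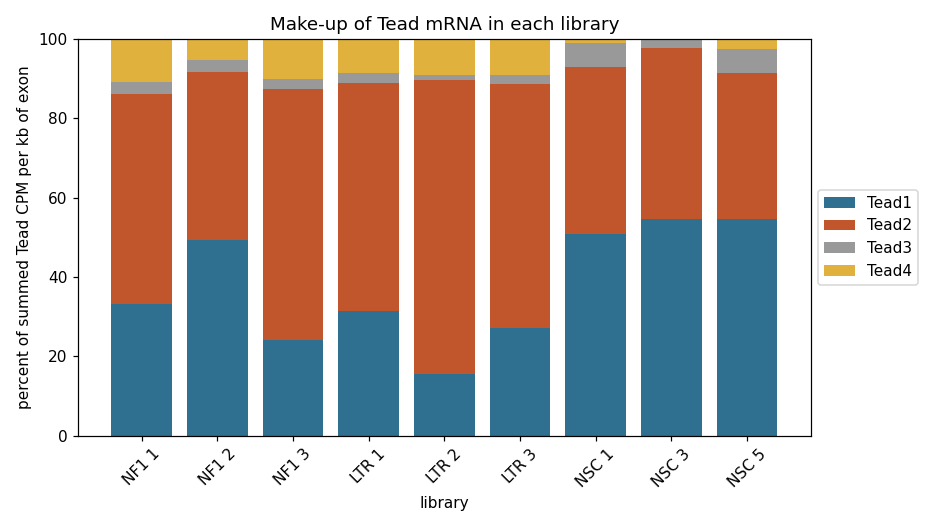
Share of each Tead gene in the summed Tead level (CPM per kb of exon, percent, bars from 0 to 100) in each library of NF1, LTR and NSC. Tead1 is above 50% in each NSC library and in no tumour library, and NF1 2, at 49.3%, is the tumour library nearest to NSC.

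Tead1 made up 33.1%, 49.3% and 24.0% of the summed Tead level in NF1 1, 2 and 3, 31.4%, 15.5% and 27.1% in LTR 1, 2 and 3, and 50.8%, 54.5% and 54.6% in NSC 1, 3 and 5. Tead2 made up 53.1%, 42.4% and 63.3% in NF1 1, 2 and 3, 57.5%, 74.2% and 61.5% in LTR 1, 2 and 3, and 42.2%, 43.1% and 36.9% in NSC 1, 3 and 5. Tead4 made up 10.9%, 5.33% and 10.1% in NF1 1, 2 and 3, 8.52%, 9.10% and 9.12% in LTR 1, 2 and 3, and 1.00%, 0.0528% and 2.59% in NSC 1, 3 and 5. Thus, by this length-scaled level, Tead1 held the larger share in each NSC library and in NF1 2, and Tead2 in the other tumour libraries. The summed Tead level itself was 50.3 ± 3.48 CPM per kb in NF1, 60.4 ± 10.4 in LTR and 46.6 ± 0.81 in NSC.

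Tead1 (ENSMUSG00000055320, chr7:112679318-112906807, plus strand) was at 241, 312.5 and 164.5 CPM in NF1 1, 2 and 3, at 226.5, 152.5 and 205 CPM in LTR 1, 2 and 3, and at 318, 351 and 341 CPM in NSC 1, 3 and 5. Every tumour library was below every NSC library, NF1 2 narrowly so. Against NSC, Tead1 fell in LTR (log2 fold change -0.79 ± 0.25, adjusted p = 0.0369), and in NF1 its log2 fold change was -0.49 ± 0.25 (adjusted p = 0.181). The LTR call is not firm: it was lost on leaving out any NSC library (NSC 1, adjusted p = 0.0802; NSC 3, 0.1; NSC 5, 0.0922), any LTR library (LTR 1, 0.0538; LTR 2, 0.142; LTR 3, 0.108) or NF1 1 (0.0572). Without NF1 2 the NF1 value passed, at -0.72 (adjusted p = 0.0363).

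Tead2 (ENSMUSG00000030796, chr7:45215753-45233644, plus strand), known as the Tead gene of early embryos and neural progenitors, was at 137, 94.9 and 153 CPM in NF1 1, 2 and 3, at 146, 257 and 164 CPM in LTR 1, 2 and 3, and at 93.3, 98.1 and 81.3 CPM in NSC 1, 3 and 5. LTR lay above NSC in every library, and NF1 2 was the one tumour library within the NSC range. Tead2 rose in LTR by a factor of 2.08 (log2 fold change 1.06 ± 0.26, adjusted p = 0.0139). This call was lost without NSC 5 (0.98, adjusted p = 0.0571). In NF1 the log2 fold change was 0.50 ± 0.26 (adjusted p = 0.188), and leaving out NF1 2 gave 0.68 (adjusted p = 0.0484). Tead2 shares 13 exon bases with Cd37 on the other strand, and Cd37 had 0 to 6 counts in a library.

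Tead3 (ENSMUSG00000002249, chr17:28331671-28350817, minus strand) was at 10.3, 9.32 and 8.77 CPM in NF1 1, 2 and 3, at 9.16, 5.76 and 8.39 CPM in LTR 1, 2 and 3, and at 18.5, 7.47 and 18.4 CPM in NSC 1, 3 and 5. NSC 3 lay among the tumour libraries, so that the groups overlapped. The log2 fold change against NSC was -0.64 ± 0.37 in NF1 (adjusted p = 0.234) and -0.93 ± 0.38 in LTR (adjusted p = 0.0794). Without NSC 3 the LTR value passed, at -1.12 (adjusted p = 0.0214), and the NF1 value did not, at -0.87 (adjusted p = 0.0635). Leaving out NF1 2 gave -0.61 in NF1 (adjusted p = 0.251).

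Tead4 (ENSMUSG00000030353, chr6:128224288-128300823, minus strand), known from the first lineage choice of the mouse embryo and from muscle, showed the largest relative change of the family. It was at 21.1, 8.96 and 18.3 CPM in NF1 1, 2 and 3, at 16.3, 23.7 and 18.3 CPM in LTR 1, 2 and 3, and at 1.67, 0.0902 and 4.29 CPM in NSC 1, 3 and 5, where it had 63, 5 and 160 counts. Every tumour library was above every NSC library. Tead4 rose 8.04-fold in NF1 (log2 fold change 3.01 ± 0.94, adjusted p = 0.0461) and 9.69-fold in LTR (3.28 ± 0.95, adjusted p = 0.0254).

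The size of this rise rests on the NSC libraries, which spread widely. Without NSC 3 the log2 fold change was 2.55 in NF1 (adjusted p = 0.0163) and 2.83 in LTR (adjusted p = 0.00908), and leaving out NF1 2 gave 3.32 in NF1 (adjusted p = 0.0175). Without NSC 5, the highest of its group, it was 4.22 in NF1 (adjusted p = 0.0336) and 4.49 in LTR (adjusted p = 0.0204). The adjusted p rose above 0.05 in NF1 without NSC 1 (0.14), LTR 1 (0.0639), LTR 2 (0.0564), LTR 3 (0.0626), NF1 1 (0.11) or NF1 3 (0.0876), and in LTR without NSC 1 (0.0855), LTR 2 (0.0571) or LTR 3 (0.0501). The NF1 call was also lost with scaling by library totals (0.0536), at 10 CPM in 3 libraries (0.0589) and with the 6 libraries compared (0.0977). The direction held in each of these.

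The 4 target genes did not all move the same way: both secreted matricellular proteins fell and Ankrd1 rose. Amotl2 had negative log2 fold changes, as these 2 did, but did not pass the test with all libraries. Ctgf (also called Ccn2, ENSMUSG00000019997, chr10:24595442-24598683, plus strand) encodes a matricellular protein that modulates growth factor and integrin signals. It was at 3.48, 7.36 and 3.55 CPM in NF1 1, 2 and 3, at 2.19, 10.5 and 8.99 CPM in LTR 1, 2 and 3, and at 106, 16.0 and 126 CPM in NSC 1, 3 and 5. Every tumour library was below every NSC library, and NSC 3 was much closer to the tumour libraries than NSC 1 and NSC 5 were. Ctgf fell in NF1 (log2 fold change -4.10 ± 0.83, 17.2-fold, adjusted p = 0.0092) and in LTR (-3.51 ± 0.81, 11.4-fold, adjusted p = 0.0106). Without NSC 3 the log2 fold change was -4.52 in NF1 (adjusted p = 0.0032) and -3.87 in LTR (adjusted p = 0.00411), and without NF1 2 NF1 had a value of -4.54 (adjusted p = 0.00528). Ctgf shares 665 exon bases with Gm15270 on the other strand, which had 1 to 24 counts in a library, and the library kit does not mark strand.

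Cyr61 (also called Ccn1, ENSMUSG00000028195, chr3:145646976-145649981, minus strand) encodes a closely related matricellular protein. It was at 21.9, 30.2 and 37.6 CPM in NF1 1, 2 and 3, at 29.6, 96.7 and 68.6 CPM in LTR 1, 2 and 3, and at 339, 182 and 422 CPM in NSC 1, 3 and 5. Every tumour library was below every NSC library, and LTR 1 lay within the NF1 range. Cyr61 fell 10.5-fold in NF1 (log2 fold change -3.39 ± 0.48, adjusted p = 0.00236) and 4.84-fold in LTR (-2.27 ± 0.46, adjusted p = 0.00633). It was the one member that passed in both comparisons under every alternative tried, with log2 fold changes of -3.62 to -3.13 in NF1. The deepest NSC library, NSC 3, was again the lowest of its group, and without it the values were -3.57 in NF1 against NSC (adjusted p = 0.00281) and -2.42 in LTR (adjusted p = 0.00741). Leaving out NF1 2 gave -3.39 in NF1 (adjusted p = 0.00164).

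**Figure D3:**
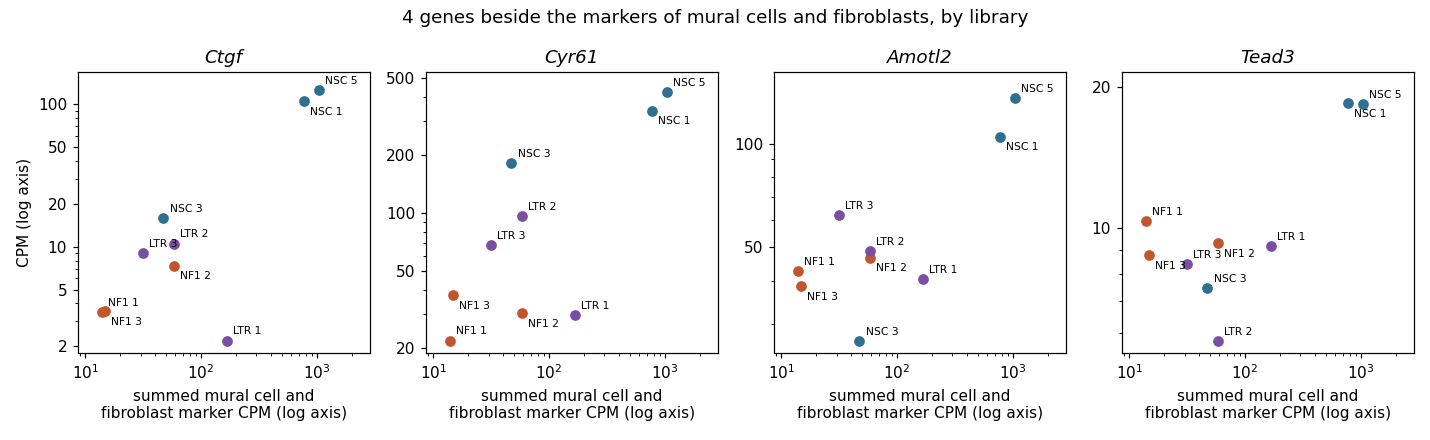
CPM of Ctgf, Cyr61, Amotl2 and Tead3 (y, log axis) beside the summed CPM of 12 markers of mural cells and fibroblasts (x, log axis) in each library of NF1, LTR and NSC. NSC 1 and NSC 5, with marker sums of 773 and 1045 CPM, have the highest levels of all 4 genes, and NSC 3, at 47.3 CPM, lies apart from them. Members not shown include Yap1, Wwtr1, Tead1 and Tead2, which were highest of the NSC libraries in NSC 3.

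The 4 genes in the plot of marker levels moved among the NSC libraries with a list of 12 markers of mural cells and fibroblasts. Not all members did so. Yap1, Wwtr1, Tead1 and Tead2 were highest of the NSC libraries in NSC 3, at 154, 247, 351 and 98.1 CPM. Tead4 was lowest in NSC 3, at 0.0902 CPM, but was higher in every tumour library than in every NSC library. The summed level of the list was 13.9, 58.0 and 14.7 CPM in NF1 1, 2 and 3, 167, 58.5 and 31.6 CPM in LTR 1, 2 and 3, and 773, 47.3 and 1045 CPM in NSC 1, 3 and 5, and 1 to 5 of the 12 genes were at 0 in a library. The genes that made up the sum differed between the groups. Col1a1 was at 1.91, 1.28 and 0.887 CPM in NF1 1, 2 and 3, at 3.20, 3.85 and 1.88 CPM in LTR 1, 2 and 3, and at 487, 16.5 and 621 CPM in NSC 1, 3 and 5. Together with Col1a2, at 258, 23.9 and 397 CPM, it made up most of the sum in NSC 1, 3 and 5. Pdgfrb had the same order there, at 13.05, 2.67 and 15.0 CPM. Dcn, Lum, Kcnj8 and Abcc9 were at 0.106 CPM or less in every library, so the sum does not show a cell type. Col3a1 went the other way, with 4.84, 1.15 and 8.12 CPM in NF1 1, 2 and 3, 152, 30.4 and 16.4 CPM in LTR 1, 2 and 3, and 1.75, 0.18 and 1.15 CPM in NSC 1, 3 and 5, and rose in LTR (log2 fold change 6.03 ± 1.20, adjusted p = 0.00609). In NF1 2, Rgs5 at 38.4 CPM and Pdgfra at 15.9 CPM made up most of the sum. Of the 6 markers with enough counts, 3 fell and none rose in NF1, and 3 fell and 2 rose in LTR, against NSC. Of all genes tested, 13.1% fell and 10.1% rose in NF1, and 20.9% fell and 14.9% rose in LTR. The part of the markers in the fall of Ctgf and Cyr61 was not tested. NSC 3 had the lowest Col1a1 and Col1a2 of its group, at 16.5 and 23.9 CPM, yet more of both than any tumour library.

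Markers of other cell types were low. The summed endothelial list was at 1.71 to 9.09 CPM in NF1, 1.19 to 3.70 CPM in LTR and 3.10 to 6.81 CPM in NSC, and the summed microglia list at 4.64 to 23.1 CPM in NF1, 2.76 to 5.26 CPM in LTR and 3.73 to 7.65 CPM in NSC, highest in NF1 2. Neural stem cell markers were abundant in every library, with sums of 11180 to 13270 CPM in NF1, 6791 to 12660 CPM in LTR and 13070 to 13700 CPM in NSC. Vim was the largest contributor, with 6073 to 11410 CPM over the libraries. Of 12 such markers, 5 fell and none rose in NF1, and 7 fell and 1 rose (Pax6) in LTR. Among the fallen was the glutamate transporter gene Slc1a3 (means of 1.76, 0.068 and 771 CPM in NF1, LTR and NSC). Over all genes, 13.1% fell and 10.1% rose in NF1, and 20.9% fell and 14.9% rose in LTR.

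Ankrd1 (ENSMUSG00000024803, chr19:36111961-36120099, minus strand), which encodes a cardiac and muscle ankyrin repeat protein of nucleus and sarcomere, went the other way. It was at 1.28, 0.128 and 5.87 CPM in NF1 1, 2 and 3 (44, 4 and 172 counts), at 8.60, 6.83 and 5.79 CPM in LTR 1, 2 and 3 (290, 179 and 194 counts), and at 0.0265, 0 and 0.161 CPM in NSC 1, 3 and 5 (1, 0 and 6 counts). The LTR libraries were all above NSC, while NF1 2 lay within the NSC range. NSC 1 and NSC 3 were under the limit of 3 counts, so the size of the fold depends on how the fit treats counts near 0.

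In LTR the log2 fold change of Ankrd1 was 6.85 ± 1.48 (adjusted p = 0.00821), and it stayed between 6.24 and 9.81 over the alternatives with the call kept. In NF1 it was 5.30 ± 1.41 (adjusted p = 0.0261). The NF1 value rests on NF1 3: leaving it out gave a log2 fold change of 3.56 (adjusted p = 0.0757), while leaving out NF1 2 gave 5.9 (adjusted p = 0.00166). It also missed the threshold without NSC 1 (4.98, adjusted p = 0.0968) and without NSC 3 (4.78, adjusted p = 0.0567). Without NSC 5, which held 6 of the 7 NSC counts, the fitted log2 fold change was 7.36 in NF1 and 8.9 in LTR.

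Amotl2 (ENSMUSG00000032531, chr9:102716672-102733418, plus strand) encodes an angiomotin family protein that binds YAP and holds it back, and is itself a target. It was at 42.8, 46.7 and 38.7 CPM in NF1 1, 2 and 3, at 40.5, 48.8 and 62.0 CPM in LTR 1, 2 and 3, and at 105, 26.8 and 135.5 CPM in NSC 1, 3 and 5. NSC 3 was the lowest of all libraries and NSC 1 and NSC 5 the highest, so the groups overlapped. The log2 fold change against NSC was -1.06 ± 0.47 in NF1 (adjusted p = 0.131) and -0.82 ± 0.47 in LTR (adjusted p = 0.196). Whether Amotl2 passes depends on NSC 3, without which it was -1.4 in NF1 (adjusted p = 0.00623) and -1.13 in LTR (adjusted p = 0.0104). Leaving out NF1 2 gave -1.11 in NF1 (adjusted p = 0.123).

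**Figure D4:**
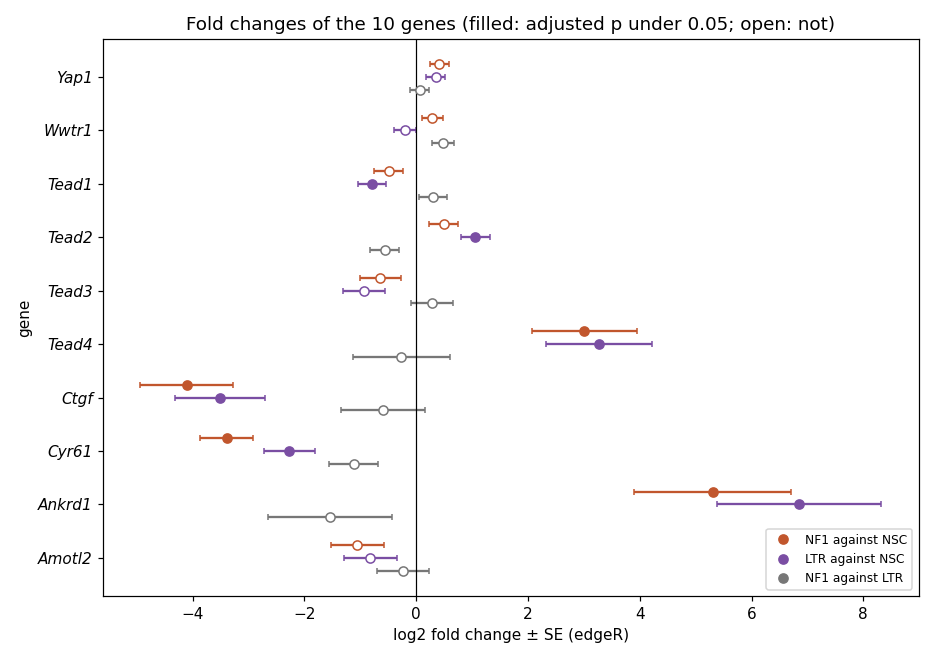
Log2 fold change ± SE (edgeR) of the 10 genes in NF1 against NSC, LTR against NSC and NF1 against LTR, with filled points at an adjusted p under 0.05. Tead4 and Ankrd1 lie above 0 and Ctgf and Cyr61 below 0 in both comparisons with NSC, and no point of NF1 against LTR is filled.

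NF1 and LTR were also compared directly. None of the 10 genes passed, and 0% of all genes tested rose and 0% fell by edgeR; at an unadjusted p under 0.05 there were 1596 genes, among them Wwtr1 and Cyr61, and DESeq2 called 330 genes and none of the 10. Wwtr1 was higher in each NF1 library than in each LTR library, with a log2 fold change of 0.48 ± 0.19 (adjusted p = 0.448). Cyr61 had a log2 fold change of -1.12 ± 0.44 (adjusted p = 0.442), with averages of 29.9 ± 7.86 CPM in NF1 and 65.0 ± 33.7 CPM in LTR. Ankrd1 averaged 2.425 ± 3.04 CPM in NF1 and 7.07 ± 1.42 CPM in LTR, with a log2 fold change of -1.55 ± 1.11 (adjusted p = 0.686). The other members had log2 fold changes between -0.59 (Ctgf) and 0.30 (Tead1), each with an adjusted p of at least 0.509. A p that misses the threshold does not show that the tumour groups are alike.

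The other genes of the pathway were read from lists of regulators and targets. Of 16 Hippo kinases and adaptors, 4 rose and 2 fell in NF1 and 2 rose and 4 fell in LTR against NSC. Over all genes tested, 10.1% rose and 13.1% fell in NF1, and 14.9% rose and 20.9% fell in LTR. The median log2 fold changes of the 16 genes were 0.09 in NF1 and -0.05 in LTR. Stk3, which encodes the upstream kinase MST2, averaged 76.2 ± 3.41 CPM in NF1, 82.6 ± 8.60 CPM in LTR and 33.6 ± 4.55 CPM in NSC. It rose in NF1 (log2 fold change 1.18 ± 0.17, adjusted p = 0.00262) and in LTR (1.3 ± 0.17, adjusted p = 0.00143). Its close relative Stk4, or MST1, had a log2 fold change of 0.10 in NF1 (adjusted p = 0.72) and 0.18 in LTR (adjusted p = 0.47).

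Lats2, a kinase that phosphorylates YAP and TAZ and is also a YAP target, was at 59.1, 45.6 and 41.9 CPM in NF1 1, 2 and 3, at 32.9, 50.9 and 43.4 CPM in LTR 1, 2 and 3, and at 165, 82.0 and 219 CPM in NSC 1, 3 and 5. All tumour libraries were below all NSC libraries, with NSC 3 again the lowest of its group. Lats2 fell in NF1 (log2 fold change -1.67 ± 0.34, adjusted p = 0.00974) and in LTR (-1.88 ± 0.35, adjusted p = 0.00442). Map4k4, a kinase that can act on LATS beside MST, averaged 274 ± 87.3 CPM in NF1, 230 ± 4.28 CPM in LTR and 683 ± 37.9 CPM in NSC, and fell in both (log2 fold change -1.32 ± 0.24 in NF1, adjusted p = 0.00622, and -1.57 ± 0.24 in LTR, adjusted p = 0.00231). Mob1a, a cofactor of LATS, had a log2 fold change of 0.38 ± 0.23 in LTR (adjusted p = 0.217). Taok1, a kinase that acts on MST, fell in LTR (log2 fold change -1.20 ± 0.33, adjusted p = 0.0202), a call lost without NSC 1 (0.0567), NSC 5 (0.0524) or LTR 3 (0.0671), and had a log2 fold change of -0.99 ± 0.33 in NF1 (adjusted p = 0.0544), which passed under 8 of 17 alternatives.

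Of 17 upstream regulators and partners, 15 were tested: 8 fell in NF1 and 11 fell in LTR, and none rose in either. Among all genes tested, 13.1% fell and 10.1% rose in NF1, and 20.9% fell and 14.9% rose in LTR. Without both NSC 3 and NF1 2, the regulators of both lists together numbered 4 risen and 15 fallen in NF1 and 3 risen and 16 fallen in LTR, beside the larger calls over all genes given above for these libraries. The median log2 fold change was -0.88 in NF1 and -1.11 in LTR. The list holds genes of opposite roles, among them Wwc1 (KIBRA) and Wwc2, scaffolds that activate LATS, Limd1, a LIM protein that holds LATS back, and Vgll4, which competes with YAP for TEAD. Wwc1 averaged 87.5 ± 12.8 CPM in NF1, 71.8 ± 2.24 CPM in LTR and 343 ± 138 CPM in NSC, and fell in NF1 (log2 fold change -1.97 ± 0.31, adjusted p = 0.00328) and in LTR (-2.26 ± 0.31, adjusted p = 0.00153). NSC 3 had 184 CPM, against 419 and 427 CPM in NSC 1 and NSC 5, and was still above every tumour library.

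Vgll4 was at 17.9, 23.3 and 8.16 CPM in NF1 1, 2 and 3, at 10.2, 9.12 and 13.9 CPM in LTR 1, 2 and 3, and at 38.8, 51.8 and 44.2 CPM in NSC 1, 3 and 5, and fell in NF1 (log2 fold change -1.45 ± 0.36, adjusted p = 0.021) and in LTR (-2.02 ± 0.37, adjusted p = 0.00433). In NF1 the adjusted p missed the threshold on leaving out NSC 3 (0.0508), NSC 5 (0.0591) or NF1 1 (0.0608). Limd1 averaged 67.4 ± 9.60 CPM in NF1, 63.8 ± 6.91 CPM in LTR and 124 ± 21.1 CPM in NSC, and fell in both (log2 fold change -0.88 ± 0.19 in NF1, adjusted p = 0.0128, and -0.95 ± 0.19 in LTR, adjusted p = 0.0065). For Vgll4 and Limd1, NSC 3 was the highest NSC library, unlike for Ctgf or Lats2. Wwc2 fell in NF1 (log2 fold change -1.33 ± 0.26, adjusted p = 0.00786) and in LTR (-1.11 ± 0.26, adjusted p = 0.0112), where the call was lost without LTR 2 (adjusted p = 0.0604). Nf2, which encodes merlin, the activator of the pathway at the membrane, was lower in every tumour library than in every NSC library but had an adjusted p of 0.0791 in NF1 and 0.0651 in LTR. Amotl1, a relative of Amotl2, had a log2 fold change of -0.69 ± 0.37 in NF1 (adjusted p = 0.195), and of -1.15 without NF1 2 (adjusted p = 0.0146). In LTR it fell (-1.39 ± 0.37, adjusted p = 0.0186), a call lost without NSC 1 (0.0507), LTR 2 (0.0697) or LTR 3 (0.0537).

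**Figure D5:**
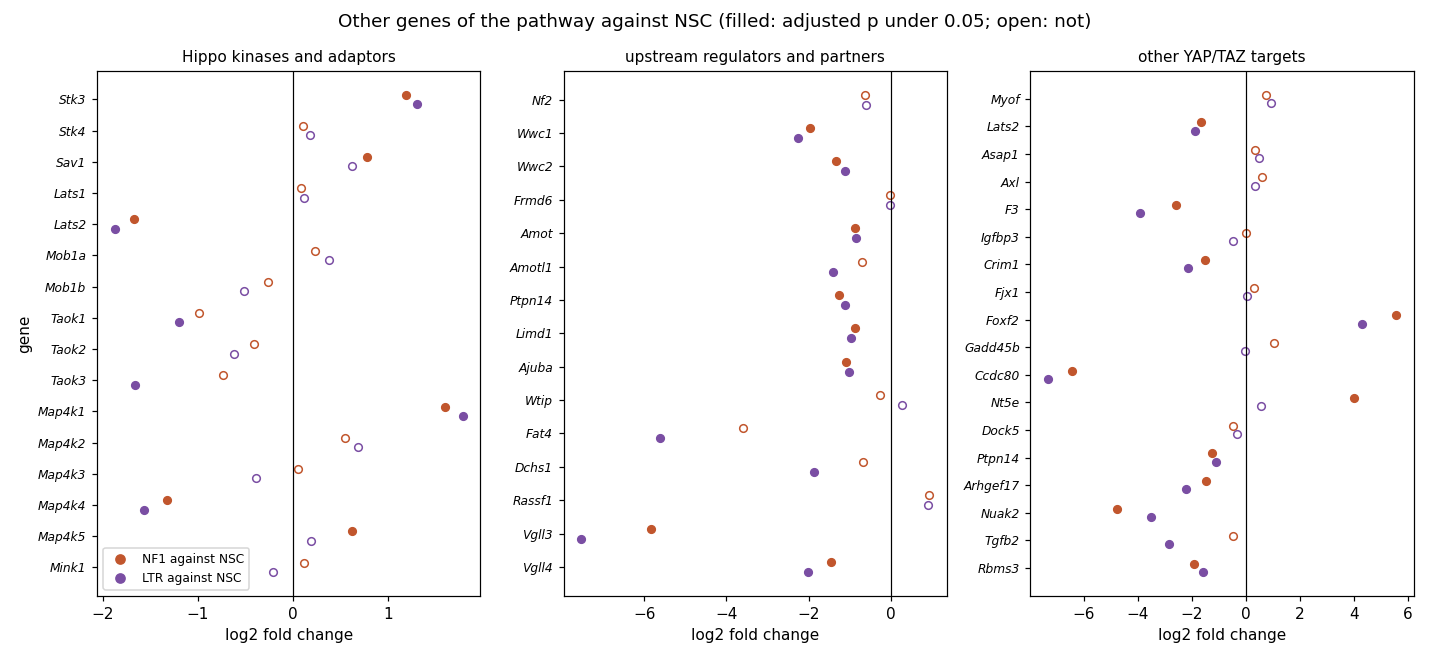
Log2 fold change in NF1 against NSC and LTR against NSC of Hippo kinases and adaptors, of upstream regulators and partners and of other YAP/TAZ targets, with filled points at an adjusted p under 0.05. None of the filled points among the upstream regulators lies above 0, and Foxf2 is the target that rises in both.

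Of 18 other genes known as YAP/TAZ targets, 2 rose and 8 fell in NF1 and 1 rose and 9 fell in LTR against NSC. The shares over all genes were 10.1% risen and 13.1% fallen in NF1, and 14.9% and 20.9% in LTR. The median log2 fold changes of the 18 genes were -0.48 in NF1 and -0.79 in LTR. Without both NSC 3 and NF1 2, 2 rose and 10 fell in each, again beside larger calls over all genes. Lats2 and Ptpn14 are in this list and in a list of regulators. Nuak2, a kinase of the AMPK family, was at 1.71, 0.704 and 1.13 CPM in NF1 1, 2 and 3, at 2.73, 3.395 and 2.48 CPM in LTR 1, 2 and 3, and at 37.4, 14.2 and 45.7 CPM in NSC 1, 3 and 5. It fell in NF1 (log2 fold change -4.77 ± 0.53, adjusted p = 0.00116) and in LTR (-3.50 ± 0.50, adjusted p = 0.0017), and its NSC libraries had the same order as those of Ctgf and Cyr61.

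Crim1, a transmembrane regulator of BMP signals, averaged 60.5 ± 17.6 CPM in NF1, 38.8 ± 8.61 CPM in LTR and 173 ± 50.03 CPM in NSC, and fell in both (log2 fold change -1.51 ± 0.30 in NF1, adjusted p = 0.00855, and -2.15 ± 0.31 in LTR, adjusted p = 0.00172). F3, which encodes tissue factor, was at 13.6, 74.1 and 13.2 CPM in NF1 1, 2 and 3, at 16.9, 11.9 and 11.7 CPM in LTR 1, 2 and 3, and at 224, 169 and 219 CPM in NSC 1, 3 and 5. It fell in NF1 (log2 fold change -2.6 ± 0.62, adjusted p = 0.0177) and in LTR (-3.91 ± 0.66, adjusted p = 0.00323). NF1 2 was the tumour library closest to NSC, and leaving it out gave -3.91 in NF1 (adjusted p = 2.58e-05), while leaving out NSC 1 (adjusted p = 0.0508) or NF1 1 (0.0534) ended the NF1 call. Foxf2, a forkhead transcription factor, was at 24.2, 42.0 and 17.4 CPM in NF1 1, 2 and 3, at 7.29, 13.7 and 13.7 CPM in LTR 1, 2 and 3, and at 0.106, 1.498 and 0.0805 CPM in NSC 1, 3 and 5. It rose in NF1 (log2 fold change 5.57 ± 1.02, adjusted p = 0.00607) and, as the one gene of the list that rose there, in LTR (4.30 ± 0.96, adjusted p = 0.00955). Its fitted size rests on NSC 3, without which it was 8.23 in NF1 and 7.02 in LTR. Foxf2 had 4, 83 and 3 counts in NSC 1, 3 and 5, so these sizes depend on how the fit treats counts near 0. The second gene that rose in NF1 was Nt5e, an ecto-nucleotidase, at 5.01, 102 and 3.17 CPM in NF1 1, 2 and 3, 2.31, 3.66 and 4.12 CPM in LTR 1, 2 and 3, and 1.69, 2.89 and 2.17 CPM in NSC 1, 3 and 5. Its log2 fold change in NF1 was 4.02 ± 1.18 (adjusted p = 0.0375) and rested on NF1 2, without which it was 0.87 (adjusted p = 0.121).

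Igfbp3, a binding protein of insulin-like growth factors, was the most abundant of these targets. It was at 2405, 6634 and 2125 CPM in NF1 1, 2 and 3, at 2415, 2486 and 3079 CPM in LTR 1, 2 and 3, and at 4059, 3402 and 3556 CPM in NSC 1, 3 and 5. NF1 2 was above and all other tumour libraries were below the NSC range, and the log2 fold change was 0.02 ± 0.41 in NF1 (adjusted p = 0.977) and -0.47 ± 0.41 in LTR (adjusted p = 0.397). Without NF1 2, Igfbp3 fell in NF1 (log2 fold change -0.69, adjusted p = 0.0342).

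Ctgf and Cyr61 belong to the CCN family of matricellular proteins. Of the other 4 members 1 fell in each comparison with NSC, where 13.1% (NF1) and 20.9% (LTR) of all genes fell. This member was Wisp2, with 2, 1 and 6 counts in NF1 1, 2 and 3, 2, 1 and 1 counts in LTR 1, 2 and 3, and 443, 24 and 645 counts in NSC 1, 3 and 5. Its log2 fold change was -6.62 ± 1.29 in NF1 (adjusted p = 0.00781) and -7.73 ± 1.4 in LTR (adjusted p = 0.00415), sizes that depend on the fit since most tumour libraries were under 3 counts. Wisp1 averaged 4.84 ± 2.6 CPM in NF1, 20.7 ± 9.03 CPM in LTR and 8.28 ± 6.19 CPM in NSC, and did not pass (adjusted p = 0.437 in NF1 and 0.16 in LTR).

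In NF1 against LTR, 0 of the regulators and 0 of the other targets passed by edgeR. The most abundant gene of each list had a log2 fold change of 0.25 (Map4k4, adjusted p = 0.761), 0.70 (Amotl1, adjusted p = 0.557), 0.48 (Igfbp3, adjusted p = 0.733) and -2.09 ± 0.71 (Wisp1, adjusted p = 0.384). Among 9753 genes of at least 8 CPM, the log2 CPM most like that of Yap1 over the 9 libraries was that of Gtf2f1 (Pearson r = 0.972), Mis12 (0.965) and Plin2 (0.962). For Wwtr1 these were Rnf139 (0.961), Rnf182 (0.952) and Atad1 (0.904), and for Ctgf Shh (0.984), Mfsd2a (0.982) and Shtn1 (0.979). The 9 points share 3 groups, 2 lanes and, in NSC 3 and NF1 2, libraries that stand apart, so these values are descriptions.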

How the data were processed

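RNA of 9 cultures (3 each of NF1, LTR and NSC) was sequenced after purification and preparation with the NEBNext Ultra kit for RNA, as the labels' protocols state. The authors deposited a table of raw counts. Tools and builds listed are STAR 2.5.2a, GRCm38, mm10, HTSeq and DESeq2 1.8.2, per the submitters' processing notes. The sources used here do not give the annotation release, the counting mode or the strand setting, and the kit does not mark strand, so genes that overlap on opposite strands are uncertain. Total counts ran from 28600479 to 57231024, and intervals or limits from counts cover counting error only.

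From these counts, edgeR 4.0.16 in R 4.3.3 fitted 1 model of the 3 groups with TMM scaling to 15696 genes that passed filterByExpr at a minimum count of 10. Genes were called by the quasi-likelihood F test at a Benjamini-Hochberg adjusted p under 0.05. SE were derived from F, and the prior count was 0.125. CPM are TMM-scaled. Coordinates and exon lengths come from GENCODE M21 (GRCm38), which holds 47310 of the 47729 identifiers. Promoters are from RefSeq (GRCm38.p6).

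Beside the 10 members, the text names for each pathway list and comparison the 3 called genes with the smallest adjusted p and the most abundant gene not called. It also names, for Yap1, Wwtr1 and Ctgf, the 3 genes of at least 8 CPM with the most similar log2 CPM. Stk4, Nt5e, the markers, and values in the other comparison of a gene that the rule names in one were added after their values were seen. The members and lists were chosen with earlier results of these data known. Alternatives were the Wald test of DESeq2 1.42.0, library totals or DESeq2 size factors as the scaling, 10 CPM in 3 libraries or nothing as the filter, a fit to the 6 libraries compared, a block for the replicate number, and leaving out each library. Leaving out NSC 3 and NF1 2 together was added after the data had been seen. The edgeR fit was tested on simulated data.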

Additional observations from a re-analysis of the deposited data

How the results depend on the processing

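The limits are 3 cultures per group, lanes that coincide with the comparisons with NSC, and counts under 3 in several libraries for Ankrd1 and Wisp2. Of 506 member values under the alternatives, 462 kept direction and side of the threshold, 26 no longer passed, 12 newly passed and 6 changed sign. The 506 include values that did not pass in the main fit, among them all of NF1 against LTR, and these had no call to lose. Of the main calls, Tead4 in NF1 against NSC was lost under 9 of 17 alternatives. Tead1 in LTR against NSC was lost under 8 of 17. Ankrd1 was too low to be tested at 10 CPM and, in NF1 against NSC, with the 6 libraries compared.

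For the 10 members, the counts in NF1 against NSC were 2 higher and 2 lower. The count higher became 1 with scaling by library totals, 0 with a filter of 10 CPM and 0 with the 6 libraries compared, and 0 to 3 on leaving out 1 library. The count lower became 4 without both NSC 3 and NF1 2. In LTR against NSC, with 3 higher and 3 lower, the count lower became 5 without both, and leaving out 1 library gave 2 to 3 higher and 2 to 4 lower. In NF1 against LTR no alternative called a member.

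Hippo regulators (both lists) in NF1 against NSC numbered 4 higher and 10 lower. The count higher became 2 with library totals, 2 with no filter, 2 with a filter of 10 CPM and 2 with the 6 libraries compared, and leaving out 1 library gave 1 to 4 higher and 5 to 15 lower. In LTR against NSC they numbered 2 higher and 15 lower, with 1 higher at 10 CPM, and 2 to 4 higher and 6 to 16 lower on leaving out 1 library. The other targets in NF1 against NSC numbered 2 higher and 8 lower, with 1 higher by DESeq2, 1 at 10 CPM and 1 with the 6 libraries compared, and 1 to 2 higher and 3 to 10 lower on leaving out 1 library. In LTR against NSC they numbered 1 higher and 9 lower, with 2 higher by DESeq2, 2 with no filter and 2 without both NSC 3 and NF1 2, and 1 to 2 higher on leaving out 1 library. In NF1 against LTR 1 other target was higher by DESeq2, 1 with no filter and 1 without both.

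Over all genes, NF1 against NSC gave 1578 higher and 2053 lower. These became 941 and 1162 at 10 CPM and 3387 and 4098 without both libraries, and 598 to 2898 and 1085 to 4002 on leaving out 1 library. LTR against NSC gave 2346 higher and 3288 lower, with 2133 lower at 10 CPM, 3693 higher without both, and 1077 to 3276 and 1963 to 4364 on leaving out 1 library. NF1 against LTR gave 0 and 0, with 198 and 132 by DESeq2, 29 and 23 with no filter, 28 and 76 without both, and 0 to 7 and 0 to 27 on leaving out 1 library.

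With the replicate block, the counts in NF1 against NSC were 546 higher over all genes, 1 and 3 for Hippo regulators, and 1 and 3 for other targets. In LTR against NSC they were 1026 higher over all genes, 1 lower for the members, 1 and 8 for Hippo regulators, and 2 higher for other targets. The block ended LTR calls of Ctgf (adjusted p = 0.0561), Tead1 (0.134), Tead2 (0.12), Taok1 (0.0859), Wwc2 (0.0677) and Amotl1 (0.0576). Wisp1 newly passed in LTR (log2 fold change 2.54, adjusted p = 0.0317). In NF1 against NSC it ended the calls of Lats2 (adjusted p = 0.0534), Limd1 (0.0552), Crim1 (0.0657), Wisp2 (0.105) and Vgll4 (0.0917). Deviations from the group means in same-numbered libraries had correlations of 0.121, -0.029 and -0.185 for NF1 and LTR 1, 2 and 3. For numbers 1 and 3 they were 0.093 and -0.051 for LTR and NSC, and -0.076 and 0.038 for NF1 and NSC. With 3 libraries in a group, these values cannot show or exclude a pairing of the cultures. The sample titles state none, and the main fit used no block.

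The following signs changed. In LTR against NSC, Wwtr1 was 0.02 without NSC 3 and 0.06 without LTR 2, and Nt5e was -0.03 with the replicate block. In NF1 against NSC, Igfbp3 was -0.01 with DESeq2 size factors and with DESeq2, -0.03 with library totals and at 10 CPM, -0.42 with the replicate block, and -0.69 without NF1 2 (adjusted p = 0.0342) and without both. Wisp1 was 0.43 with the block, and Stk4 was -0.07 without NF1 1. In NF1 against LTR, Yap1 was -0.03 without LTR 1 and 0 without both, Tead4 was 0.02 and Igfbp3 was -0.23 without NF1 2 and without both. On leaving out 1 library, the log2 fold changes ran from -0.32 to 0.06 for Wwtr1 in LTR against NSC, -0.69 to 0.26 for Igfbp3 and -0.07 to 0.27 for Stk4 in NF1 against NSC, and -0.03 to 0.14 for Yap1, -0.51 to 0.02 for Tead4 and -0.23 to 0.72 for Igfbp3 in NF1 against LTR. The cause was not tested.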
